A study of Mus musculus with 8 samples.

Results

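The MHC class II presentation genes described here are 10 genes: the class II chains H2-Aa, H2-Ab1 and H2-Eb1, the invariant chain Cd74, the coactivator Ciita, the peptide-exchange chains H2-DMa, H2-DMb1 and H2-DMb2, and the modulator chains H2-Oa and H2-Ob. They were chosen by name, through the gene symbol that the platform annotation gives each array feature, from 19087 genes measured. All 10 had at least 1 feature, and they held 26 of the 33709 features with a listed gene. Messenger RNA of B splenocytes, which are spleen B cells, was measured on 1-color arrays. The lymphoma group comprised 4 mice that combined c-myc with Cdk4 R24C, in which the Cdk4 kinase escapes inhibition by INK4 proteins. The control group comprised 4 wild type mice, and both groups were labelled C57BL/6. Each mouse gave 1 array (n = 4 per group), and arrays 1 and 2 of each group shared slide 1 while arrays 3 and 4 shared slide 2. The sources used here give neither the age and sex of the mice nor the promoter that drives c-myc.

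In lymphoma, 1 of the 26 features was called lower, against 0.997% of all listed features. It belonged to H2-Oa, whose product restrains peptide exchange in B cells, and was 2.56-fold lower (log2 difference -1.36 ± 0.30 SE, adjusted p 0.0448 in limma). The other 25 features did not pass. The count was 6 without wild type 1, where calls over all listed features also rose, to 3.25% lower. It was 0 without any other single array, with slide or replicate number as a block and with quantile normalization. Ciita, the class II coactivator, differed by -1.22 ± 0.34, H2-Ob by -1.28 ± 0.33 and H2-Aa by -0.92 ± 0.25 on the log2 scale, with adjusted p values of 0.106, 0.0815 and 0.094. H2-Ab1 and Cd74, both read near the ceiling of the scanner, differed by 0.05 ± 0.25 and 0.13 ± 0.25 on their brightest features. The other 12 of the 13 H2-Ab1 features had negative differences, with a median of -0.43 over all 13. These arrays measure the RNA of the whole preparation, so that fewer cells of a type and less RNA per cell cannot be told apart.

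Class II molecules carry peptides from endosomes to the cell surface, where CD4 T cells read them. The alpha and beta chains assemble with the invariant chain in the endoplasmic reticulum, the invariant chain is cut down to a short peptide in lysosome-like compartments, and the DM heterodimer exchanges that peptide for others while the DO heterodimer of B cells restrains DM. CIITA does not bind DNA itself. It docks on RFX, CREB and NF-Y proteins that occupy the X and Y boxes of class II promoters and is the limiting factor for their transcription, and mature B cells express it constitutively.

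The promoter letters on which these factors act are shown for the members whose window in the RefSeq promoter table (build GRCm38.p6) held them. Of the 10 genes, 7 were searched, in 8 windows of 300 bases, each with 250 bases before the annotated start. No window was at hand for H2-Ab1 and Ciita. Cd74 was left out of the search beforehand, with no reason recorded, so the 7 genes do not include it. The counts below therefore say nothing about Cd74. Windows were searched for ATTGG, the core of the Y box, preceded by GCAAC or by TGATG. The distance was 25 to 40 bases for GCAAC and 20 to 35 bases for TGATG, counted from first base to first base. The member windows were searched on the strand of the gene only. The windows behind the percentages below were searched on both strands. Either pair was found in 6 of the 7 genes, and in 1.7% of all 32851 windows of the same length. Counted by window, 2 of the 8 member windows held no pair. Both pairs were found in H2-Eb1 and H2-Ob, and in 0.0335% of all windows. Neither H2-DMa window held a pair. These letters were chosen after the sequences had been read, and a match is a description of the window. In the lines below, capitals mark the letters searched, written 5′ to 3′ on the strand of the gene. In H2-Eb1 and H2-DMb1 a pair of overlapping TGATG runs reads as 1 longer run in capitals, and in H2-Eb1 it directly follows GCAAC.
H2-Aa, chr17:34287857-34287914, minus strand: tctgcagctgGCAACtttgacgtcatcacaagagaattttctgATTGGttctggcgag
H2-Eb1, chr17:34305766-34305822, plus strand: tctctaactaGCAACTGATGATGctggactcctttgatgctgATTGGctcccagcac
H2-DMb1, chr17:34153092-34153144, plus strand: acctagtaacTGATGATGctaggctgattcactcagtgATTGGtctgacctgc
H2-DMb2, chr17:34145124-34145173, plus strand: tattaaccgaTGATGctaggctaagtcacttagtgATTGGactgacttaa
H2-Oa, chr17:34092293-34092350, plus strand: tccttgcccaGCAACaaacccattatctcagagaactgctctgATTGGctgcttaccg
H2-Ob, chr17:34238808-34238862, plus strand: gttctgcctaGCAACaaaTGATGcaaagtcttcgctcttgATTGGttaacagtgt
The distance from GCAAC to ATTGG was 33 bases in H2-Aa and H2-Oa, 32 in H2-Eb1 and 30 in H2-Ob. ATTGG began between 43 bases (H2-Oa) and 90 bases (H2-DMb2) before the annotated start.

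**Figure D1:**
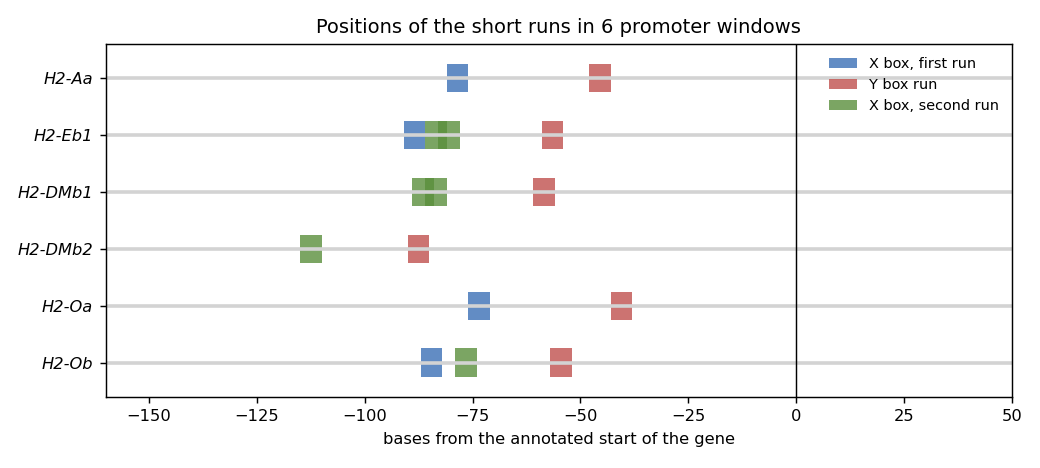
Positions of the searched runs in the 6 promoter windows that held a pair, in bases from the annotated start of the gene (horizontal axis), 1 line per gene. The Y box run lies between 90 and 43 bases before the start, and the X box runs lie further upstream in all 6 windows.

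Values below are log2 intensities, with arrays aligned at their 75th percentile, and a difference is lymphoma minus wild type. Near the ceiling means an intensity of 80% or more of the maximum of that array. The background bound of an array, between 7.17 and 7.45, was the 95th percentile of 1113 olfactory and vomeronasal receptor features. Deposited medians lay between 7.04 and 7.26. Across features wild type 1 correlated on average at 0.963 with lymphoma arrays and at 0.941 with its fellow controls. For wild type 2 these values were 0.918 and 0.935. Results are also given without wild type 1, which was picked from these same data for its likeness to lymphoma. Leaving it out therefore tends to widen group differences, and values without it are no firmer evidence. Over all listed features, calls lower went from 336 to 1094 and calls higher from 221 to 1223. Among B cell markers Ms4a1, which encodes CD20, lay at 15.73 ± 0.42 in wild type and 15.84 ± 0.33 in lymphoma (mean ± SD, n = 4), and 0 of 6 measured markers passed in limma. The Ms4a1 feature was near the ceiling on 2 control and 3 lymphoma arrays. The median difference of the 6 markers was 0.10, and 2 of them were negative. These were Cd22 (-1.03, adjusted p 0.0854 in limma), whose groups did not overlap, and Pax5 (-0.60, adjusted p 0.478).

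The coactivator Ciita was represented by 1 feature. It read 13.64, 15.34, 14.16 and 14.06 in wild type 1 to 4 and 13.25, 13.40, 12.98 and 12.70 in lymphoma 1 to 4. All 4 lymphoma arrays lay below all 4 control arrays, with a gap of 0.24 between the groups, and wild type 2 was the highest array. The group means were 14.30 ± 0.73 and 13.08 ± 0.31 (SD), a 2.32-fold difference with an adjusted p of 0.106 in limma. Without wild type 1 the difference was -1.44 ± 0.33 (adjusted p 0.0239). Without wild type 2 it was -0.87 (adjusted p 0.125). The differences were -1.16 within slide 1 and -1.27 within slide 2. Over all 21 alternatives the adjusted p of Ciita ran from 0.0239 to 0.708.

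The 4 features of the DO chains differed by -1.36 to -1.22. H2-Oa, the alpha chain of DO, had 2 features. The one that passed read 13.51, 13.38, 13.96 and 13.85 in wild type 1 to 4 and 12.90, 12.60, 11.53 and 12.24 in lymphoma 1 to 4. The groups were separated by 0.48, and lymphoma 3 was the lowest array. The call held without wild type 1 (difference -1.41 ± 0.32, adjusted p 0.0239) and ended when any other single array was left out (adjusted p 0.0609 to 0.146). The brighter H2-Oa feature read 14.48, 13.43, 14.99 and 15.12 in wild type and 13.82, 13.49, 12.50 and 13.30 in lymphoma. Here the groups overlapped, because wild type 2 lay below lymphoma 1 and 2. Its difference was -1.22 ± 0.39 (adjusted p 0.153). The slides gave unlike values for this feature, -0.30 within slide 1 and -2.15 within slide 2, but the difference between slides of -1.85 ± 0.58 did not pass either (adjusted p 0.557 for the interaction in limma). For the feature that passed, the values were -0.69 within slide 1 and -2.02 within slide 2.

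H2-Ob, the beta chain of DO, also had 2 features. The brighter one read 11.61, 13.35, 12.34 and 12.50 in wild type 1 to 4 and 11.35, 11.39, 11.09 and 10.86 in lymphoma 1 to 4. The groups did not overlap, and wild type 1 minus the mean of the other controls was -1.12. The 2.42-fold difference had an adjusted p of 0.0815. Leaving wild type 1 out gave -1.56 ± 0.28 (adjusted p 0.00748, with a range from 0.00748 to 0.708 over all 21 alternatives). Leaving wild type 2 out gave -0.98 (adjusted p 0.118 in limma). The dimmer H2-Ob feature read 7.55, 9.09, 8.75 and 8.89 in wild type and 7.44, 7.91, 7.14 and 6.81 in lymphoma. On 2 of the 4 lymphoma arrays it lay at background, and its difference of -1.24 ± 0.35 had an adjusted p of 0.11. Without wild type 1 this feature passed with a difference of -1.58 ± 0.28 (adjusted p 0.00624).

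Among the classical class II chains, H2-Aa, the alpha chain of I-A, had 2 features that were not alike. The brighter read 13.41, 13.95, 14.42 and 14.00 in wild type 1 to 4 and 12.80, 12.95, 13.30 and 13.03 in lymphoma 1 to 4. The groups did not overlap, by a margin of 0.11, since wild type 1 and lymphoma 3 lay close together. The difference of -0.92 ± 0.25 became -1.10 ± 0.23 without wild type 1 (adjusted p 0.0151, with a range from 0.0151 to 0.708 over all 21 alternatives). The second H2-Aa feature read 13.63, 12.98, 14.30 and 14.14 in wild type and 13.57, 13.08, 13.06 and 12.88 in lymphoma. Its groups overlapped, and it differed by -0.61 ± 0.30 (adjusted p 0.38). Within slide 1 that feature differed by 0.02 and within slide 2 by -1.25.

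H2-Eb1, the beta chain of I-E, read 15.69, 16.12, 15.57 and 15.79 in wild type 1 to 4 and 15.48, 15.11, 14.81 and 14.86 in lymphoma 1 to 4. The groups did not overlap, with a gap of 0.08. Its feature was near the ceiling on 3 control arrays and on 0 lymphoma arrays, and it differed by -0.73 ± 0.23 (adjusted p 0.155). The partner of H2-Eb1 is H2-Ea, which C57BL/6 mice are known not to express. Its feature lay below the background bound on all 8 arrays, with means of 6.44 in wild type and 6.75 in lymphoma. H2-Eb2, a further beta chain gene of the locus that is no member of the set, had 2 features. The brighter differed by -1.28 ± 0.31 with groups that did not overlap (adjusted p 0.0703 in limma). It was dim, above the background bound on 3 of the 4 lymphoma arrays. The other H2-Eb2 feature differed by -0.57 and did not pass.

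H2-Ab1, the beta chain of I-A, had 13 features, and 11 of them were near the ceiling on at least 1 array. The brightest read 15.88, 16.28, 15.29 and 15.70 in wild type 1 to 4 and 15.51, 16.14, 15.86 and 15.85 in lymphoma 1 to 4. It was near the ceiling on all 4 control and on 3 lymphoma arrays, so that its difference of 0.05, which turned to -0.02 with the values as deposited, says little about the amount of RNA. Of the 13 features 12 had a negative difference, from -0.72 to -0.03, with a median of -0.43 over all 13. On 3 further features all 4 control arrays and none of the lymphoma arrays were near the ceiling. Their point estimates were 1.40-fold, 1.65-fold and 1.62-fold lower in lymphoma, with adjusted p values of 0.349, 0.163 and 0.151 in limma. Whether the ceiling made these differences too small was not tested. The H2-Ab1 features away from the ceiling differed by -0.08 ± 0.30 and -0.03 ± 0.37. On the dimmest of them wild type 1, at 13.96, was the highest and wild type 3, at 11.97, the lowest of the 8 arrays. No H2-Ab1 feature passed in limma (adjusted p 0.151 to 0.98). The table does not show which spots share a probe, so the 13 features need not be independent measurements.

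Cd74, the invariant chain, had 1 feature. It read 15.75, 16.22, 15.40 and 15.72 in wild type 1 to 4 and 15.43, 16.25, 15.93 and 16 in lymphoma 1 to 4. It was near the ceiling on 3 arrays of each group, and the groups overlapped. The difference was 0.13 ± 0.25 (adjusted p 0.855) and lay between -0.15 within slide 1 and 0.41 within slide 2.

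The DM chains were not alike among themselves. H2-DMa, the alpha chain of DM, read 13.41, 13.07, 12.04 and 12.63 in wild type 1 to 4 and 13.33, 12.52, 12.27 and 12.51 in lymphoma 1 to 4. The groups overlapped throughout, and the difference of -0.13 ± 0.33 (adjusted p 0.892) became 0.08 without wild type 1. H2-DMb2, a beta chain of DM, read 13.64, 15.08, 14.18 and 14.12 in wild type and 13.63, 13.57, 13.08 and 13.13 in lymphoma on its brighter feature. Wild type 1 and lymphoma 1 were 0.01 apart there, and the remaining controls lay higher. The difference was -0.90 ± 0.30 (adjusted p 0.18). With wild type 1 left out it was -1.11 ± 0.29 (adjusted p 0.0429, with a range from 0.0429 to 0.708 over all 21 alternatives). The dimmer H2-DMb2 feature differed by -0.18 ± 0.28 (adjusted p 0.822). H2-DMb1, the other beta chain gene, read 15.15, 16.16, 15.29 and 15.89 in wild type and 15.13, 15.02, 14.40 and 15.02 in lymphoma. It was near the ceiling on 3 control arrays, and its difference of -0.73 ± 0.28 had an adjusted p of 0.242. H2-DMb1 and H2-DMb2 are closely related copies, and how far a probe of one also reads the other was not tested.

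**Figure D2:**
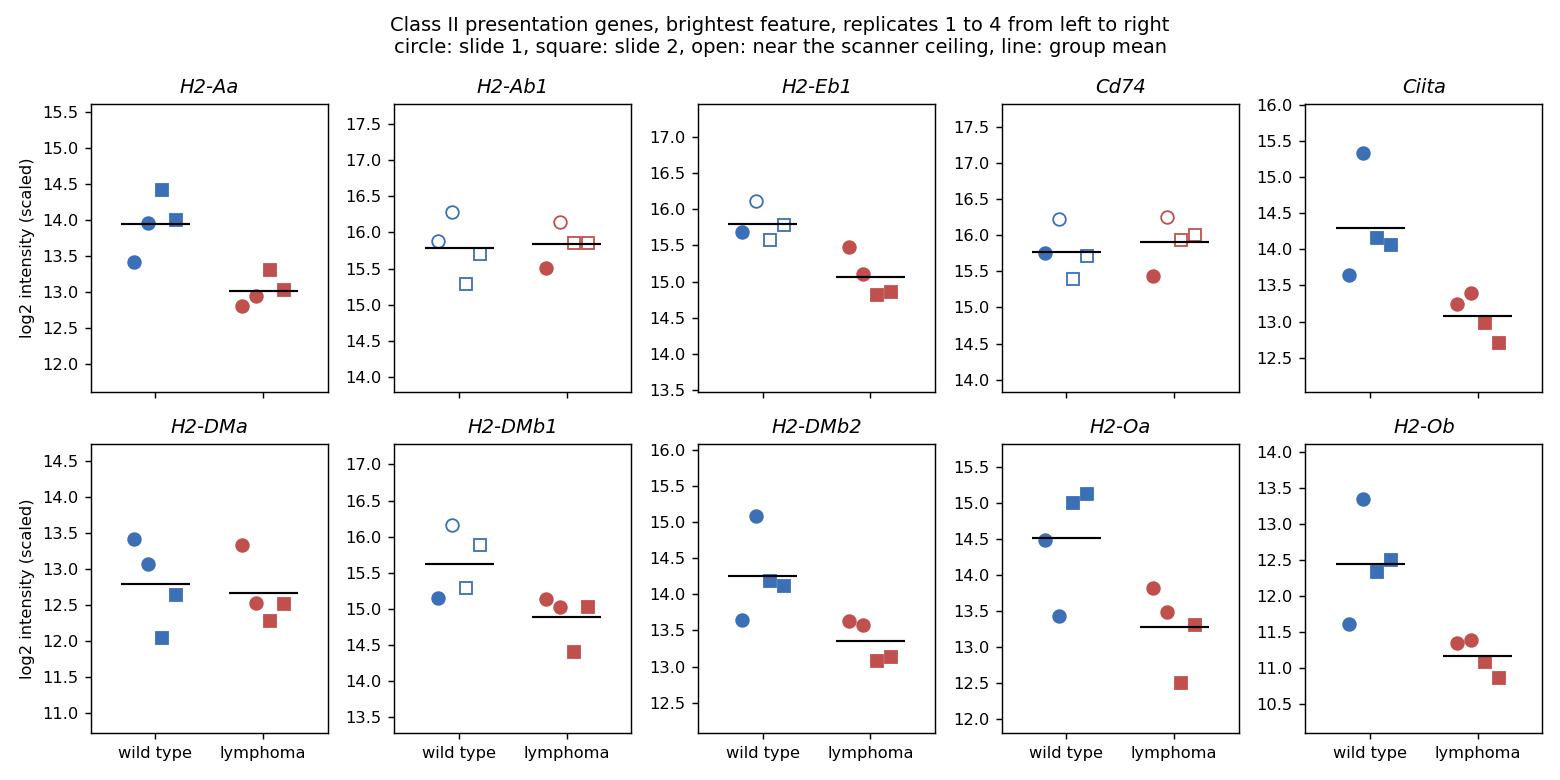
Scaled log2 intensity (vertical axis, a span of 4 units in every panel) of the brightest feature of each of the 10 genes in the 4 wild type and the 4 lymphoma arrays. Points are single arrays, lines are group means, and open symbols are near the scanner ceiling. The groups are separate for H2-Aa, H2-Eb1, Ciita, H2-DMb1, H2-DMb2 and H2-Ob and overlap for H2-Ab1, Cd74, H2-DMa and H2-Oa.

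Across the set, 1 of 26 features was called lower, against 0.997% of all listed features, and 0 were called higher, against 0.656%. By the brightest feature of each gene, 0 of the 10 passed in limma in either direction, against 1.27% of all genes lower and 0.817% higher. At an unadjusted p under 0.05, 13 of the 26 features were lower, against 6.69% of all listed features, and 7 of the 10 genes, against 7.73% of all genes. All 4 lymphoma values lay below all 4 control values in 10 of the 26 features, against 4.81% of all listed features. The same held in 6 of the 10 genes, against 5.55% of all genes. The reverse order was seen in 0 of the 26 features, against 4.44% of all listed features. The median difference of the 10 genes was -0.82 and that of all genes 0.06. Over the 12 member features away from the ceiling the median difference was -0.91, and over the 14 near it -0.49. Of those 14 features 11 belonged to H2-Ab1, so these medians also differ in the genes they hold. Within H2-Ab1, the features away from the ceiling differed by only -0.08 and -0.03. An effect of the ceiling was not tested. Without wild type 1, 6 features passed, all lower, against 3.25% of all listed features. They belonged to Ciita, H2-Aa, H2-DMb2, H2-Oa and, with both of its features, H2-Ob. By the brightest feature, 4 of the 10 genes were then lower, against 3.87% of all genes, and 0 were higher, against 4.28%.

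**Figure D3:**
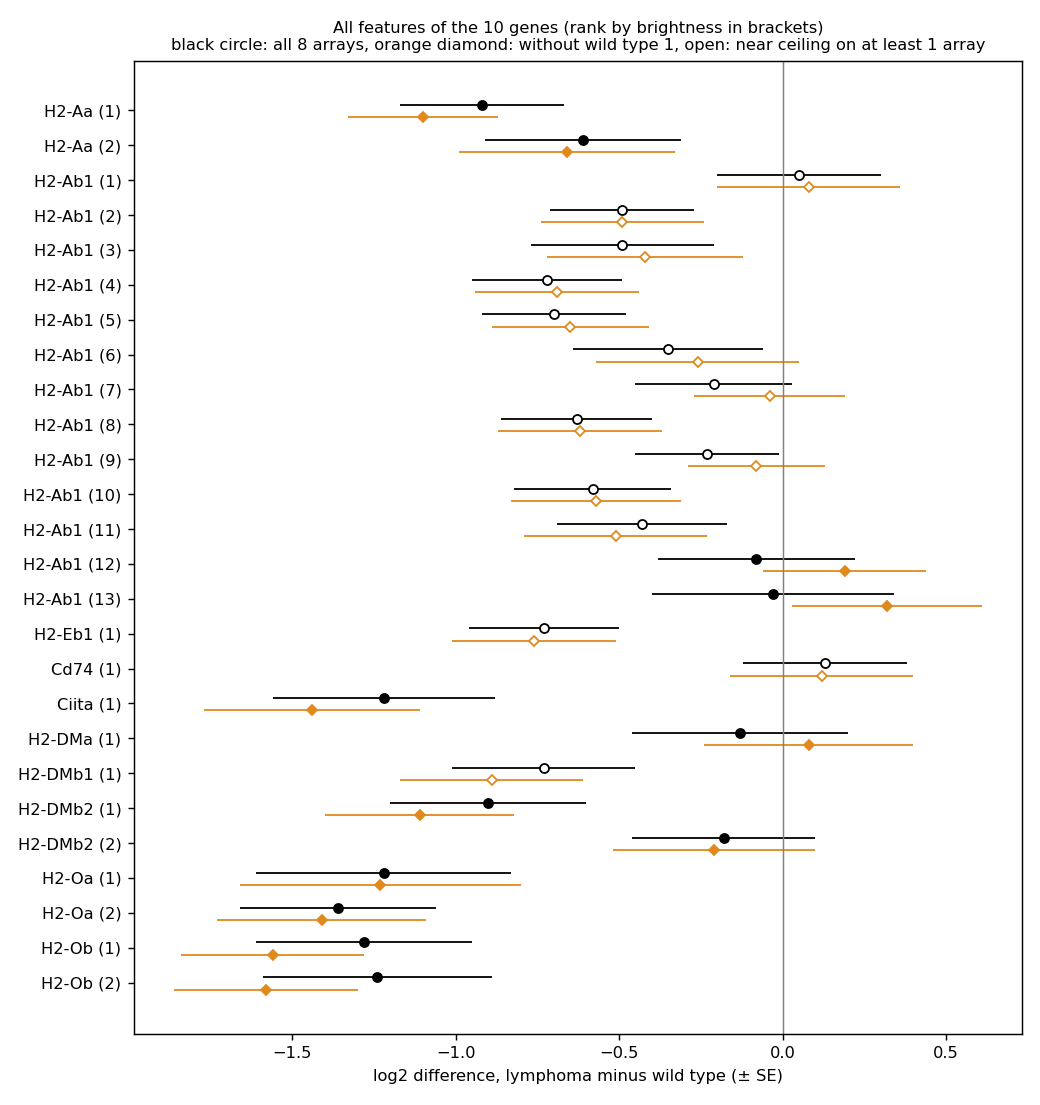
Log2 difference of lymphoma minus wild type (horizontal axis, bars are 1 SE) for each of the 26 features, with all 8 arrays (black) and without wild type 1 (orange). Open symbols were near the ceiling on at least 1 array. The features of Ciita, H2-Oa and H2-Ob lie between -1.36 and -1.22 with all arrays, and the brightest H2-Ab1 feature and Cd74 lie slightly above 0.

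Arrays varied in common across the set. Wild type 2 was the highest of the 8 arrays in 6 of the 10 genes by their brightest features, and wild type 1 the lowest control in 5. Averaged over the 10 genes, each centred on its own mean, the arrays scored 0.09, 0.72, 0.19 and 0.38 in wild type 1 to 4 and -0.20, -0.19, -0.55 and -0.45 in lymphoma 1 to 4. The member nearest to this mean profile was H2-Eb1, at a root mean square distance of 0.13, and the farthest was H2-Oa, at 0.70. Of 9063 other genes above background on all 8 arrays, those nearest to the mean profile over the 8 arrays were Lcmt2, Rhog, Chd4, Znrd1 and Etaa1, at distances of 0.07 to 0.09. None of these 5 passed the test itself (adjusted p 0.12 to 0.204).

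Within slide 2 alone, 4 of the 10 genes passed, all lower (Ciita, H2-DMb2, H2-Oa and H2-Ob), against 3.28% of all genes. In slide 1 alone, where wild type 1 lies, 0 of all listed features were called by limma. The difference between slides did not pass for any of the 10 genes, and it passed for 0 of all listed features in limma, with 2552 at an unadjusted p under 0.05.

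**Figure D4:**
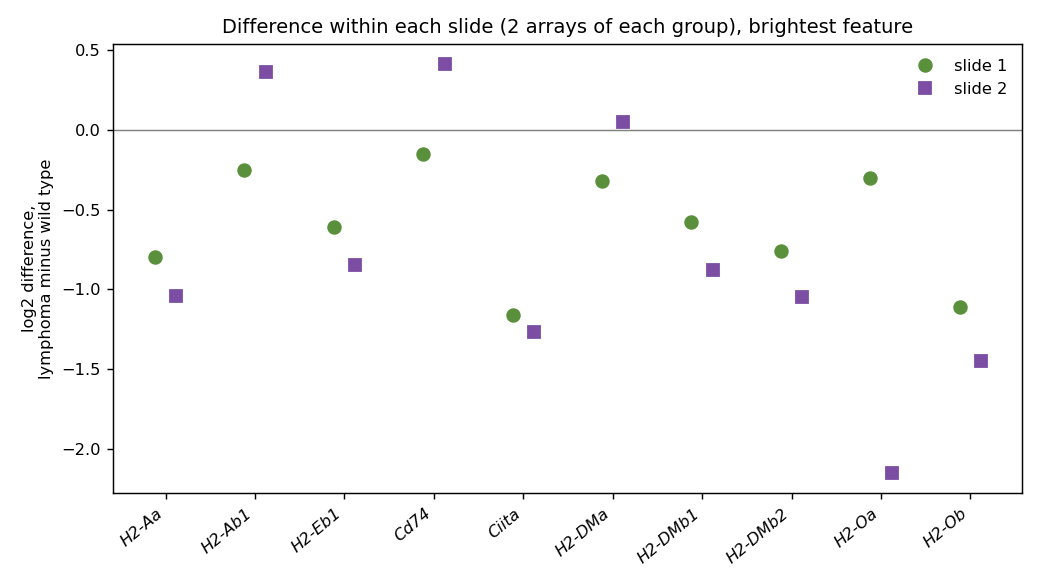
Log2 difference of lymphoma minus wild type (vertical axis) within slide 1 (circles) and within slide 2 (squares), 2 arrays of each group per slide, for the brightest feature of each gene. H2-Oa has the widest gap between slides of the 10 genes, -0.30 against -2.15, and H2-Ab1, Cd74 and H2-DMa change sign between slides.

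The factors that act with or on Ciita were described as lists. None of the 7 promoter-binding factors passed (median -0.43). Rfxank, a subunit of the RFX complex, had the largest difference at -1.25 ± 0.34 (adjusted p 0.102). It read 10.06, 11.76, 10.46 and 10.65 in wild type 1 to 4 and 9.65, 9.82, 9.01 and 9.47 in lymphoma 1 to 4, so that its groups did not overlap. Of 10 measured regulators of Ciita, 1 fell and 1 rose, against 1.27% of all genes lower and 0.817% higher. Irf8, an interferon regulatory factor of B and myeloid cells, was 4.17-fold lower (difference -2.06 ± 0.46, adjusted p 0.0482), at 12.85, 14.79, 14.84 and 15.06 in wild type and 11.89, 12.12, 13.15 and 12.14 in lymphoma. Wild type 1 lay among the lymphomas there, and leaving it out gave -2.57 (adjusted p 0.000596). The zinc finger protein Zbtb32, known to repress Ciita in B cells on their way to plasma cells, differed by 3.88 ± 0.67 (adjusted p 0.0206). It read 13.70, 10.27, 10.51 and 10.52 in wild type and 13.97, 15.62, 15.35 and 15.57 in lymphoma. Wild type 1 was again the control nearest to the lymphomas.

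Among 10 genes of endolysosomal processing, 2 fell and 0 rose, against 1.27% of all genes lower and 0.817% higher. The median of this list was -0.35. Ctsl, the protease cathepsin L, was 3.79-fold lower (difference -1.92 ± 0.27, adjusted p 0.00768), at 10.33, 11.36, 11.18 and 11.18 in wild type and 8.70, 9.31, 9.25 and 9.11 in lymphoma. Ctsd, cathepsin D, was 2.03-fold lower (adjusted p 0.0472). Of 10 genes of class II turnover at the membrane none passed (median -0.62), and Cd83, which holds class II at the surface, had the largest difference at -1.32 ± 0.33 (adjusted p 0.0787). For comparison, 1 of 15 class I presentation genes was lower, against the same 1.27% of all genes. It was Tap1, a subunit of the peptide transporter, at 2.23-fold (adjusted p 0.0399 in limma). The class I median was -0.17. Within slide 1 the medians were -0.61 for class I and -0.60 for class II, and within slide 2 they were 0.05 and -0.96. Without wild type 1 the numbers lower were 1 promoter-binding factor, 3 regulators of Ciita, 3 endolysosomal genes, 2 turnover genes and 1 class I gene, against 3.87% of all genes. The numbers higher were then 1 regulator of Ciita and 1 turnover gene, the tetraspanin Cd9 (2.07, adjusted p 0.00412), against 4.28% of all genes. Whether the class II and the class I genes differ from each other was not tested.

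Of 9 measured macrophage markers, 5 fell and 0 rose by their brightest features, against 1.27% of all genes lower. They were Mpeg1 (difference -1.55), Fcgr1 (-1.54), C1qa (-1.44), C1qb (-1.33) and Lyz2 (-1.14), with adjusted p values of 0.00802 to 0.0472 in limma. The second features of Mpeg1 (-0.05), Fcgr1 (-0.7) and Lyz2 (-0.4) did not pass. The other 4 did not pass, and the median of the list was -1.16. The summed intensity of the list ran from 30500 to 55600 in wild type and from 14000 to 20900 in lymphoma. Macrophages also express class II genes, and the part of these cells in the class II values was not tested. Among 8 dendritic cell markers 0 passed in limma with all arrays and 1 without wild type 1, Itgax, which encodes CD11c. Its brighter feature differed by -1.01 (adjusted p 0.261) with all arrays and by -1.42 (adjusted p 0.0134) without wild type 1. The other Itgax feature went the opposite way, with a difference of 0.48 with all arrays. Flt3, Zbtb46, Clec9a and Siglech, 4 of the 8, were at background on all 8 arrays. The summed intensity of the dendritic list ran from 1320 to 1780 in wild type and from 1010 to 1140 in lymphoma. That of the B cell list ran from 92000 to 151000 and from 115000 to 162000. The brightest features in this sum, of Ms4a1 and Cd79b, were near the ceiling, that of Cd79b on 3 control and 4 lymphoma arrays. The B cell sum therefore says little about the amount of B cell RNA.

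**Figure D5:**
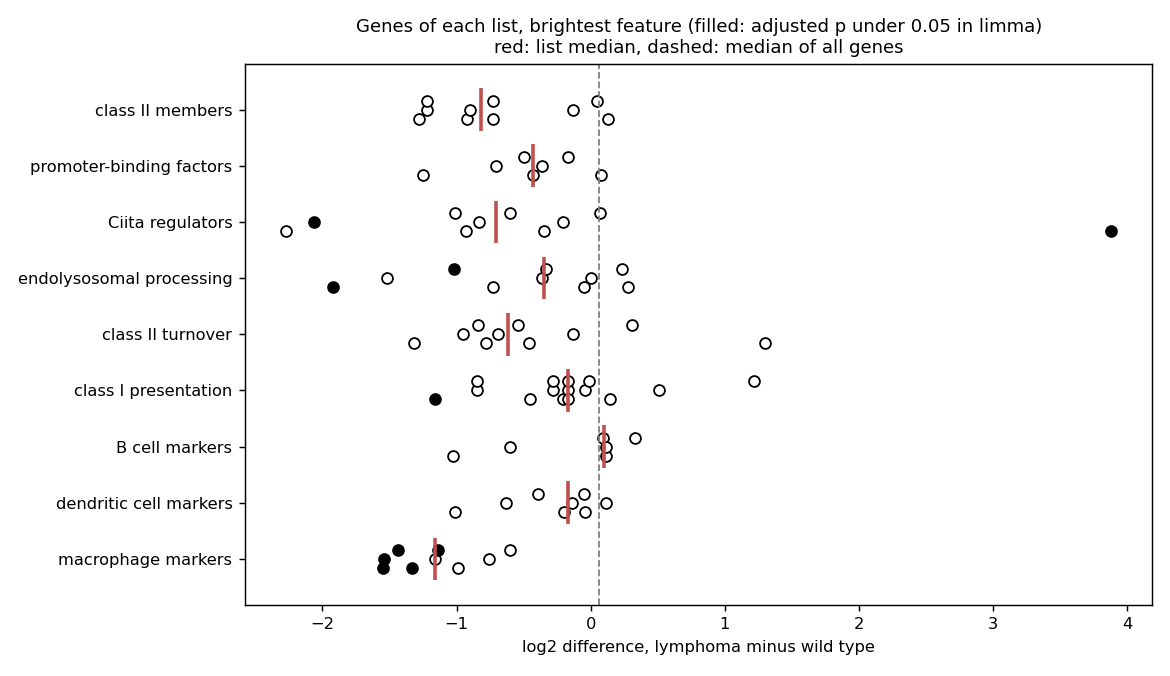
Log2 difference of lymphoma minus wild type (horizontal axis) of the brightest feature of each gene, by gene list. Filled points passed an adjusted p of 0.05 in limma, red lines are list medians and the dashed line is the median of all genes, at 0.06. The class II median lies at -0.82, the class I median at -0.17 and the macrophage median at -1.16.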

How the data were processed

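RNA of 8 mice was labelled with Cy3 and hybridized at 0.5 µg per array, per the labels. The authors deposited log2 intensities of 45220 features; the sources used here do not give scanner, background correction or normalization. The platform annotation listed 33709 features with a gene, 33653 of them with 1 symbol. The 75th percentiles of the arrays over listed features spanned 0.215, and arrays were shifted to a common 75th percentile. limma (version 3.58.1, R 4.3.3) was fitted with lmFit and eBayes to all listed features on group alone, as a two-sided test adjusted after Benjamini-Hochberg over these features; a call is an adjusted p under 0.05. A gene was represented by its brightest feature, or, as an alternative, by the mean of its features. On simulated data for this comparison with 33709 features, 13.4%, 65.7% and 98.5% of log2 changes of 1, 2 and 4 were recovered. The labels give separate mice only, and precision is limited by how few arrays there are.

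The named genes were the 10 members and, per list, up to 3 called genes with the largest difference, or else the gene with the largest difference. Ms4a1, C1qb and Lyz2 were given as defining markers. H2-Ea, Prdm1, Xbp1, Irf4, Pax5, Cd79b, Cd9, Alas2 and the 4 dendritic cell markers at background were named after their values had been seen. Genes of like pattern had the smallest root mean square distance from the mean centred profile of the members. Members, lists and tests were chosen with earlier results of these data known. Alternatives were other scalings, other feature sets, trend and robust settings, array weights, slide or replicate number as a block, single slides and leaving out each array. Some genes of the lists are not analysed here.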

Additional observations from a re-analysis of the deposited data

Results flagged for a closer look

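In a group of 4 arrays, a value was looked at again when its gap to the nearest other array exceeded the 95% critical value of Dixon as a share of the range of the group. Of 90 groups of values tested, 7 met this, and chance alone gives about 5%. Among the members it was H2-DMb1 in lymphoma 3, at 14.40 against 15.02 to 15.13 in the other lymphomas. Wild type 1 stood apart for Irf8, at 12.85 against 14.79 to 15.06, for Zbtb32, at 13.70 against 10.27 to 10.52, and for Cd8b1, a T cell marker, at 13.27 against 8.26 to 8.59. Lymphoma 1 stood apart for Zbtb32, at 13.97 against 15.35 to 15.62, and for Sdc1, a plasma cell marker, at 6.77 against 8 to 8.17. Lymphoma 4 stood apart for Tap1, at 9.35 against 9.84 to 9.89.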

How the results depend on the processing

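Under the alternatives the member features called lower, 1 in all, numbered 0 with quantile normalization, with all features of the table, with slide as a block and within slide 1, 6 with array weights, 7 within slide 2 and 0 to 6 when single arrays were left out. Listed features called lower, 336, and higher, 221, numbered 1129 and 999 with array weights. They numbered 0 and 0 within slide 1, and 941 and 1008 within slide 2. With single arrays left out they ran from 53 to 1094 and from 31 to 1223. With all features of the table the calls numbered 365 lower and 219 higher. Member genes called lower, 0, numbered 4 with array weights, 4 within slide 2 and 0 to 4 when single arrays were left out. Pathway genes called lower, 3, numbered 1 with quantile normalization, 1 with all features of the table, 13 with array weights, 0 within slide 1, 8 within slide 2 and 1 to 10 when single arrays were left out. Pathway genes called higher, 1, numbered 0 with trend and robust settings, 0 within slide 1, 2 within slide 2 and 0 to 2 when single arrays were left out. Genes that passed in limma only under an alternative were, with array weights, H2-Aa (-1.04), Ciita (-1.03), H2-Oa (-1.56) and H2-Ob (-1.21), and within slide 2 Ciita (-1.27), H2-DMb2 (-1.05), H2-Oa (-2.15) and H2-Ob (-1.45). With single arrays left out, H2-Aa ran from -1.10 to -0.77, Ciita from -1.44 to -0.87, H2-DMb2 from -1.11 to -0.63 and H2-Ob from -1.56 to -0.98. The sign of H2-Ab1 turned with the values as deposited (-0.02), within slide 1 (-0.25), with the mean of its features (-0.38), with its brightest feature away from the ceiling (-0.08) and when single arrays were left out (-0.11 to 0.22). Cd74 turned within slide 1 (-0.15). H2-DMa turned with array weights (0.08), within slide 2 (0.05) and when single arrays were left out (-0.38 to 0.08). The H2-Oa feature that passed lost its call with quantile normalization (-1.34, adjusted p 0.0648 in limma), with all features of the table (-1.36, adjusted p 0.0511), with slide as a block (-1.36, adjusted p 0.0526) and within slide 1 (-0.69, adjusted p 0.708), and ran from -1.55 to -1.10 with single arrays left out. With the replicate number as a block, which the labels do not describe as a pairing, its difference was -1.36 (adjusted p 0.0653) and 0 member features were called. The deviations of same-numbered arrays from their group means correlated at 0.18, -0.04, 0.13 and -0.02, so the numbers were not taken as pairs. H2-Eb1, Cd74 and H2-DMb1 had no feature away from the ceiling, so that alternative gave no value for them. The cause of these changes was not tested, except that single slides and left-out arrays have fewer samples. Signal near the ceiling limits H2-Ab1, Cd74, H2-Eb1 and H2-DMb1.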

Other observations

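Plasma cells are known to shut off class II genes. Of 6 measured plasma cell markers 3 fell and 0 rose, against 1.27% of all genes lower and 0.817% higher. Jchain, which joins polymeric antibodies, differed by -3.18 (adjusted p 0.0403 in limma). Sdc1, the surface proteoglycan CD138, differed by -1.74 (adjusted p 0.0296) and Tnfrsf17, a survival receptor, by -1.74 (adjusted p 0.0306). Prdm1, the plasma cell factor known to repress Ciita, differed by -0.83 (adjusted p 0.125), and Xbp1, a factor of antibody secretion, by -0.06 (adjusted p 0.971). The remaining marker of the list, Irf4, differed by -0.93 (adjusted p 0.293). Of 4 measured granulocyte markers 1 fell, against the same 1.27% of all genes. It was S100a8, a calcium-binding protein of neutrophils, by -2.39 (adjusted p 0.0133 in limma). Of 7 T and NK cell markers and 4 erythroid markers 0 passed in limma, and Cd8b1, a T cell marker, differed by 2.67 (adjusted p 0.188). Without wild type 1 Cd8b1 differed by 3.88 (adjusted p 3.29e-05), the 1 T or NK cell marker that then passed. The erythroid markers that passed without wild type 1 numbered 2, both lower: Hba-a1, an alpha globin, at -2.01 (adjusted p 0.0212, and -1.44 with an adjusted p of 0.268 with all arrays), and Alas2, an enzyme of heme synthesis, at -1.31 (adjusted p 0.0159, and -1.02 with an adjusted p of 0.164). Cd22, an inhibitory receptor of B cells, differed by -1.03 (adjusted p 0.0854).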
